A study of Mus musculus with 24 samples.

Results

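The oligodendrocyte lineage was followed here through 34 genes in hippocampal RNA of 24 female mice. The genes were chosen by name from a list of mature oligodendrocyte, myelin and precursor genes, and all 34 were found among the 46983 genes of the deposited count table. Every member of the list passed the filter on low counts, under which 16209 genes with 10 or more counts in all 6 mice of a group were kept. By role the list held 15 genes of compact myelin and its upkeep, 4 lipid and metabolic enzymes, 5 carriers, secreted and stress proteins, 5 transcription factors, 2 precursor cell genes and 3 genes of committed precursors and newly formed oligodendrocytes. Below, compact myelin genes is short for all 15 of the first role, not each of which encodes a part of compact myelin.

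The mice were adult C57BL/6 females in 4 groups of 6, namely Fkbp5lox/lox control, Fkbp5lox/lox early life stress (ELS), Fkbp5Nex control and Fkbp5Nex ELS. All 24 animals come from crosses of mice with loxP-flanked Fkbp5 alleles, and the Fkbp5lox/lox animals (the wild type of the labels) have no Cre. Fkbp5Nex mice (the FKBP51-Nex knockout of the labels) also carry Nex-Cre, a driver active from embryonic life in glutamatergic neurons of the forebrain but not of the dentate gyrus. By this design Fkbp5, which encodes the glucocorticoid receptor co-chaperone FKBP51, is left in place in other cells, glia included. ELS was a cage with little bedding and nesting material in the first days after birth. Rearing was assigned to whole litters, and since the labels give no litter, mice of a group may be littermates. Tissue punches from the dorsal and the ventral hippocampus went into 1 RNA sample per mouse.

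Oligodendrocytes arise from dividing precursor cells that carry the receptor PDGFRA and the proteoglycan NG2 (Cspg4). A precursor that commits to the lineage passes through a short stage marked by Gpr17, then by Bcas1 and Enpp6, before the factor MYRF switches on the genes of myelin. Myelin is the wrapped membrane that insulates axons, and in the hippocampus it is dense in the fibre tracts that border the region and sparser within the cell layers. In bulk RNA, fewer cells of a type and less RNA per cell cannot be told apart.

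Total counts per mouse ranged from 18347283 to 26555623. Fkbp5 had 1078 to 1602 counts in the 12 Fkbp5lox/lox mice and 169 to 582 counts in the 12 Fkbp5Nex mice, with no overlap, and its log2 fold change was -2.04 (SE 0.10, adjusted p = 5.75e-12 by edgeR's quasi-likelihood test). Fkbp5Nex control mouse 12 stood apart from the other 23 libraries in markers of other cells. Its 10 astrocyte markers summed to 4285 CPM (counts scaled to a common library size with TMM factors), its 10 meningeal fibroblast markers to 956 CPM, and its 582 Fkbp5 counts were the most of any Fkbp5Nex mouse. Each comparison is therefore given with and without mouse 12. Fkbp5Nex control mouse 52 also lay far from its group. Its counts differed from those of its mates by a chi-square per gene of 33.8 to 54.9, against 28.2 to 62.3 for mouse 12. Mouse 52 is left out only where each mouse is left out in turn. The labelled tissue carried the markers of the lineage, while 5 markers of Schwann cells, the myelinating cells of peripheral nerve, summed to at most 5.31 CPM in a mouse.

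The genes of compact myelin varied several-fold between mice of every group. Mbp, which encodes the basic protein that holds myelin membranes together, had a lowest, median and highest level of 602.7, 1270.3 and 2163 CPM in Fkbp5lox/lox controls, 652.7, 1381 and 1906 CPM in Fkbp5lox/lox ELS, 598.7, 1483 and 2686 CPM in Fkbp5Nex controls, and 874.2, 1366 and 1854 CPM in Fkbp5Nex ELS mice. The 4 groups overlapped, and the highest mouse of the 24 had 4.49 times the Mbp of the lowest. Mog, a surface protein of the outermost myelin layer, had 13.7, 30.0 and 46.6 CPM in Fkbp5lox/lox controls, 14.9, 29.2 and 44.1 CPM in Fkbp5lox/lox ELS, 17.5, 36.5 and 62.7 CPM in Fkbp5Nex controls, and 21.9, 34.0 and 47.6 CPM in Fkbp5Nex ELS mice. The mice lowest in Mog came from different groups (Fkbp5lox/lox control mouse 44, Fkbp5lox/lox ELS mouse 68 and Fkbp5Nex control mouse 12), and the highest were Fkbp5Nex control mice 42 and 54, followed by Fkbp5Nex ELS mouse 62 and Fkbp5lox/lox control mouse 74. Opalin, a transmembrane protein of mature oligodendrocytes, had 6.17, 14.96 and 24.3 CPM in Fkbp5lox/lox controls, 6.32, 14.1 and 19.1 CPM in Fkbp5lox/lox ELS, 4.68, 14.7 and 24.6 CPM in Fkbp5Nex controls, and 11.2, 15.8 and 19.6 CPM in Fkbp5Nex ELS mice. In Mbp, Mog and Opalin the Fkbp5Nex ELS mice spanned the narrowest range and the Fkbp5Nex controls the widest, a difference in spread that was not tested.

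Among the transcription factors, Myrf and Nkx6-2 varied between mice like myelin and Olig1 and Olig2 varied little. Myrf, which drives myelin gene transcription, had 17.3, 31.3 and 56.9 CPM in Fkbp5lox/lox controls, 20.4, 34.9 and 49.6 CPM in Fkbp5lox/lox ELS, 17.8, 37.5 and 63.96 CPM in Fkbp5Nex controls, and 28.0, 34.9 and 46.7 CPM in Fkbp5Nex ELS mice. Sox10, a factor of the whole lineage, had 19.2, 25.9 and 40.8 CPM in Fkbp5lox/lox controls, 20.7, 26.1 and 37.6 CPM in Fkbp5lox/lox ELS, 21.6, 31.4 and 45.7 CPM in Fkbp5Nex controls, and 25.5, 29.8 and 34.9 CPM in Fkbp5Nex ELS mice. Olig2, which specifies the lineage and is on in precursors as well as mature cells, had 20.4, 26.2 and 30.3 CPM in Fkbp5lox/lox controls, 20.9, 25.1 and 34.1 CPM in Fkbp5lox/lox ELS, 21.9, 27.7 and 32.9 CPM in Fkbp5Nex controls, and 23.6, 25.5 and 30.7 CPM in Fkbp5Nex ELS mice. Across the 24 mice the highest level was 6.29 times the lowest for Nkx6-2, a factor of maturing oligodendrocytes, and 1.68 times for Olig2.

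The precursor genes were steadier than myelin. Pdgfra, the receptor through which precursors receive their growth signal, had 49.1, 53.3 and 64.2 CPM in Fkbp5lox/lox controls, 49.4, 54.8 and 60.5 CPM in Fkbp5lox/lox ELS, 49.4, 56.9 and 66.2 CPM in Fkbp5Nex controls, and 52.4, 55.1 and 59.7 CPM in Fkbp5Nex ELS mice. Cspg4, which pericytes also express, had 13.6, 15.98 and 24.4 CPM in Fkbp5lox/lox controls, 13.7, 18.8 and 20.6 CPM in Fkbp5lox/lox ELS, 16.8, 17.7 and 21.5 CPM in Fkbp5Nex controls, and 16.1, 18.7 and 19.6 CPM in Fkbp5Nex ELS mice. The highest mouse had 1.35 times the Pdgfra and 1.79 times the Cspg4 of the lowest, against 6.01 times for Mobp, a basic protein of compact myelin.

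In the genes of the committed stage single Fkbp5Nex mice stood high. Gpr17, a receptor of committed precursors, had 32.2, 37.2 and 46.5 CPM in Fkbp5lox/lox controls, 31.6, 36.4 and 43.7 CPM in Fkbp5lox/lox ELS, 29.6, 44.4 and 116.6 CPM in Fkbp5Nex controls, and 35.3, 42.8 and 72.7 CPM in Fkbp5Nex ELS mice. The 3 highest were Fkbp5Nex control mouse 64 (116.6 CPM), Fkbp5Nex control mouse 12 (86.9 CPM) and Fkbp5Nex ELS mouse 38 (72.7 CPM), while the lowest 2 of the Fkbp5Nex controls lay below every Fkbp5lox/lox mouse. Enpp6, an enzyme of newly formed oligodendrocytes, had 2.56, 3.44 and 5.65 CPM in Fkbp5lox/lox controls, 1.78, 3.59 and 5.93 CPM in Fkbp5lox/lox ELS, 2.10, 4.08 and 14.3 CPM in Fkbp5Nex controls, and 2.51, 3.59 and 5.28 CPM in Fkbp5Nex ELS mice. Its highest value was again in Fkbp5Nex control mouse 64, with 8.02 times the level of the lowest of the 24. Bcas1, a protein of early myelinating oligodendrocytes, had 36.8, 65.1 and 99.9 CPM in Fkbp5lox/lox controls, 32.9, 68.3 and 100.7 CPM in Fkbp5lox/lox ELS, 54.96, 84.6 and 155.8 CPM in Fkbp5Nex controls, and 52.9, 75.02 and 90.4 CPM in Fkbp5Nex ELS mice. Mouse 64 was the highest of the 24 in all 3 genes, and the groups overlapped in each.

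**Figure D1:**
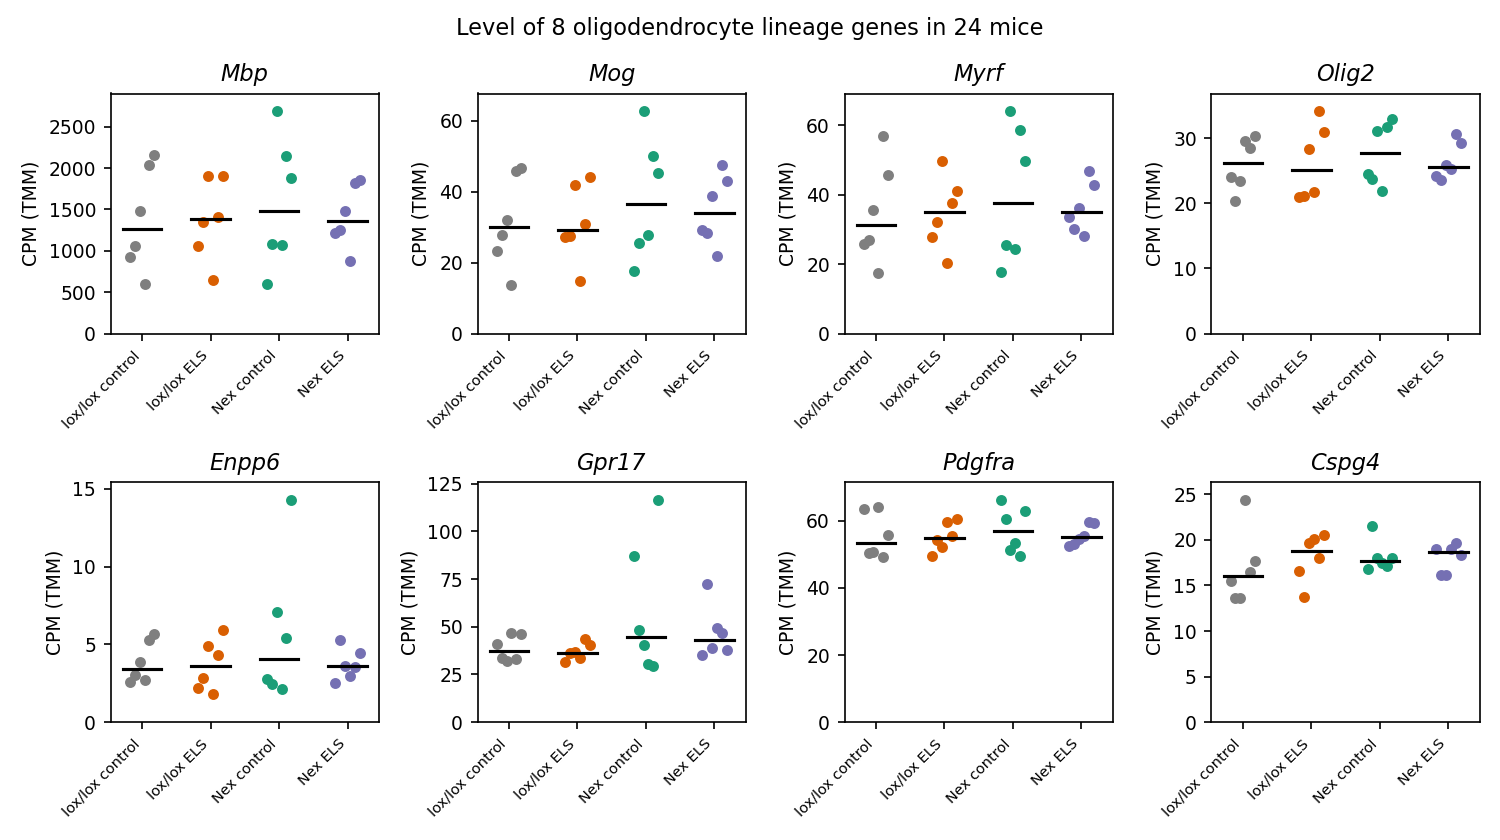
Level of 8 genes (CPM, scaled by TMM, vertical axes from 0) in each of 24 mice by group, with a point per mouse and a bar at the group median. The groups overlap in every panel, the myelin genes Mbp and Mog and the factor Myrf spread widely, Olig2, Pdgfra and Cspg4 stay within a narrower band, and Gpr17 and Enpp6 each have their highest point in a Fkbp5Nex control mouse (116.6 and 14.3 CPM), with mouse 12 next in Gpr17 at 86.9 CPM.

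Per length of the annotated exons, Mbp led the list with a median of 593.7 TPM (counts divided by exon length and scaled to the same total in each mouse) over the 24 mice. Car2, a carbonic anhydrase of oligodendrocytes that choroid plexus and other cells also express, followed with 272.6 on this per-length scale, then Mobp with 221.8 and Plekhb1 with 215.4. The precursor genes lay low, with Pdgfra at 19.9 and Cspg4 at 5.42 per length, and Enpp6 (2.03) and Trf (0.944) closed the order. The order of Car2 and Mobp turned with the lengths used, since with the length of the longest transcript Mobp (367.0) lay above Car2 (293.3). Ranges of neighbouring genes overlapped, for example 219.7 to 392.3 per length for Car2 against 84.8 to 513.3 for Mobp. Together the 34 genes held from 0.177% to 0.533% of a mouse's signal per length, with a median of 0.294%.

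Trf, the iron carrier transferrin, had only 6 to 34 reads per mouse, and it passed the filter through the Fkbp5Nex groups, where no mouse had fewer than 10. In GENCODE vM21 it shares 63.5% of its exonic bases with a neighbour on the same strand, Gm20425. That neighbour had 0 counts in all 24 mice, and the level of Trf is uncertain. Of the 34 genes, 12 in all share exonic bases with another, among them Cnp with Dnajc7, Cryab with Hspb2 and Gpr17 with Lims2, and since the use of strand in counting was not stated, reads of such pairs cannot be told apart. By contrast, 18 of the 34 overlapped no other gene.

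Within groups, the lineage genes spread more between mice than most genes. The SD between mice of a group, as a median over the 34 genes, was 0.554 on the log2 CPM scale, against 0.182 for all 16209 genes. It was widest for Mobp (0.782) and lowest for Pdgfra (0.140), which lay below the median of all genes, while Cspg4 (0.210) lay above it. The model of all comparisons held 5 surrogate variables, which are patterns shared by many genes, estimated with the group means taken into account. They were not fully separate from the groups, whose means accounted for 2.97% to 23.997% of the variance of each, and these shares were not tested. They took up a median of 88.5% of the within-group variance of the 34 genes and 56.8% of that of all genes, but 37.3% of that of Gpr17 and 49.1% of that of Enpp6. What remained had a median SD of 0.209 for the 34 genes and 0.128 for all. The variables were built from all genes, these included, and the first of them had a correlation of 0.844 with Mog within groups.

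**Figure D2:**
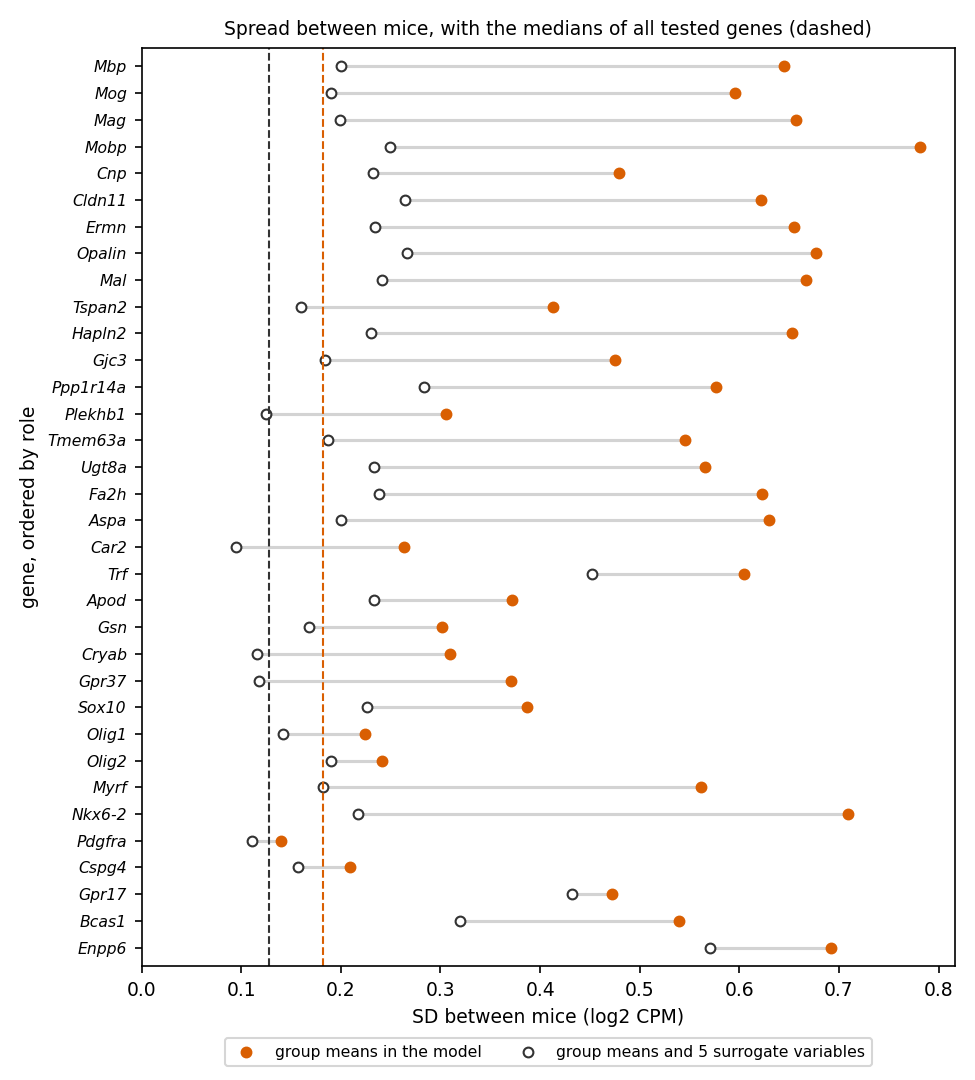
SD between mice (log2 CPM, horizontal axis) of each of the 34 genes after removal of the group means (filled) and of the group means and 5 surrogate variables (open), with the medians of all 16209 genes as dashed lines in the same colours. Filled points lie right of the dashed line of 0.182 except that of Pdgfra, and the gap between filled and open points is wide in the myelin genes and narrow in Gpr17 and Enpp6.

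Mature genes rose and fell together from mouse to mouse. Among the 105 pairs of compact myelin genes the correlation of deviations from the group means (24 mice) had a median of 0.956 and a range of 0.833 to 0.994. Against the lipid and metabolic enzymes, among them the myelin lipid enzymes Ugt8a and Fa2h, the median was 0.952 over 60 pairs. Bcas1 and Enpp6 went with compact myelin as well, with a median of 0.830 over 30 pairs. The sign was opposite for Pdgfra, Cspg4 and Gpr17, whose 45 correlations with compact myelin genes were all negative, from -0.537 to -0.00502 with a median of -0.193, though for Pdgfra and Gpr17 the sign against Mog turned once the surrogate variables were also removed. Of the transcription factors, Myrf (0.959) and Nkx6-2 (0.958) went with Mog as closely as Opalin did (0.958). Sox10 (0.862), Olig1 (0.694) and Olig2 (0.556) had lower positive correlations to it. The first principal component held 79.0% of the variance of the 34 genes and the next 7.48%. These correlations are descriptions, and the values of a mouse all come from 1 library.

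**Figure D3:**
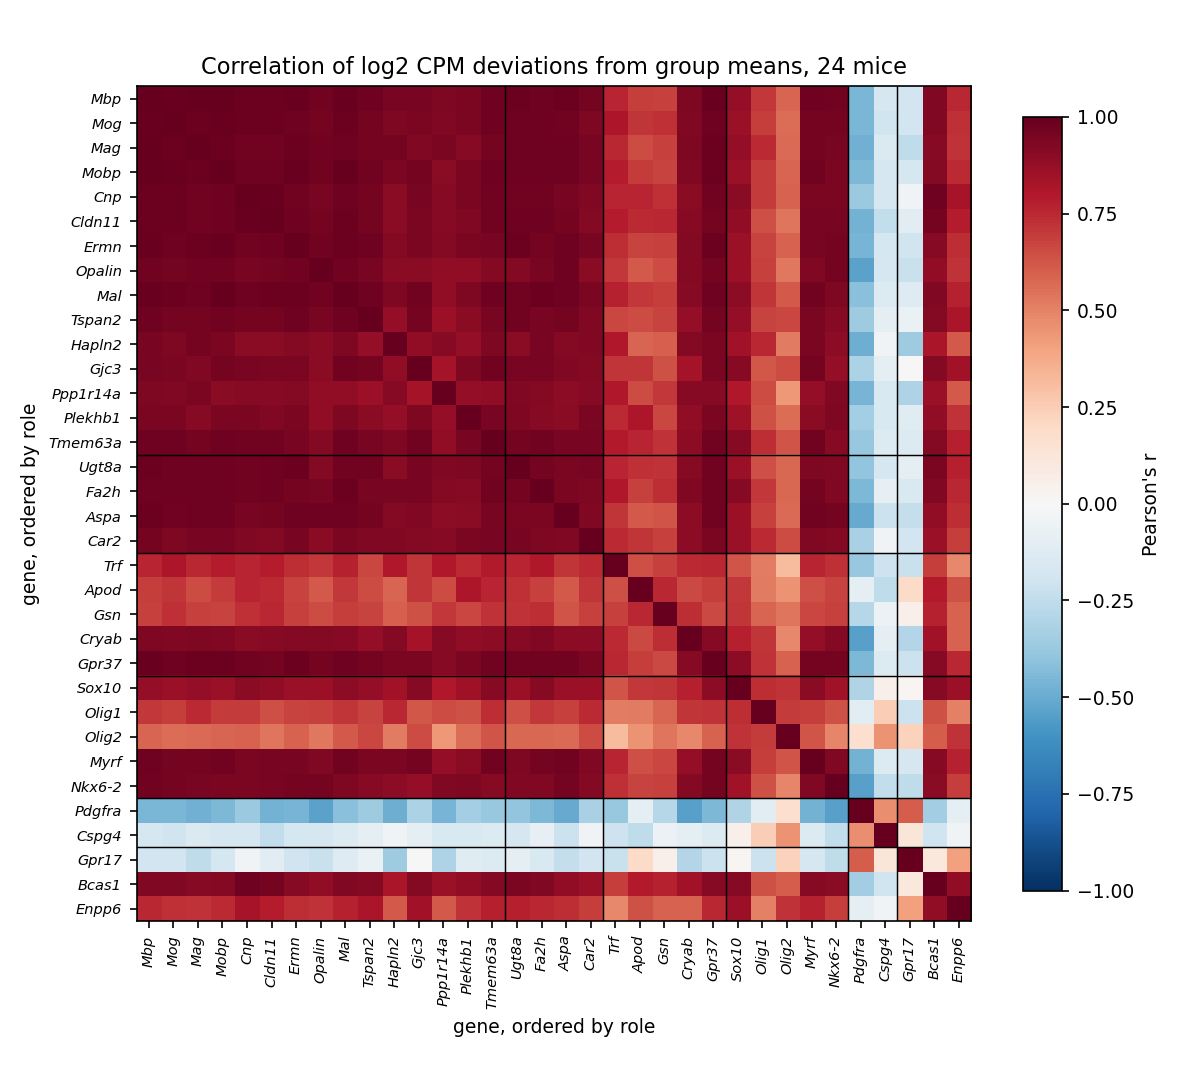
Pearson's r between the 34 genes, ordered by role on both axes, for deviations of log2 CPM from the group means in 24 mice (red positive, blue negative, white 0). Compact myelin genes and lipid enzymes form a dark red block with a median of 0.956 among the compact myelin pairs, and the lines of Pdgfra, Cspg4 and Gpr17 are pale or blue against it.

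For 6 genes the relation with Mog was tested over the 24 mice with 100000 two-sided permutations within groups, adjusted over the 6. Mog followed Mbp with Pearson's r = 0.99 (permutation p = 1e-05, the smallest they can give, adjusted p = 3e-05) and Spearman's rho = 0.98 (permutation p = 1e-05), and r was 0.98 after the 2 mice with the most extreme Mog were left out. Opalin gave r = 0.96 (permutation p = 1e-05, adjusted p = 3e-05) and rho = 0.96 (permutation p = 1e-05), and r = 0.94 without those mice. Sox10 gave r = 0.86 (permutation p = 2e-05, adjusted p = 4e-05) and rho = 0.90 (permutation p = 1e-05), and r = 0.88 without them. Enpp6, though a gene of newly formed cells, also rose with Mog at r = 0.73 (permutation p = 0.00028, adjusted p = 0.00042) and rho = 0.80 (permutation p = 4e-05), with r = 0.74 without them. Pdgfra had r = -0.46 (permutation p = 0.0574, adjusted p = 0.0688) and rho = -0.41 (permutation p = 0.0984), which missed the threshold, and r was -0.27 without those mice. Gpr17 had r = -0.19 (permutation p = 0.458, adjusted p = 0.458) and rho = -0.22 (permutation p = 0.351), and r was -0.08 without them. With deviations taken from the surrogate variables as well, both relations turned positive. Pearson's r was 0.527 for Gpr17 and 0.416 for Pdgfra (permutation adjusted p = 0.0371 for both). Spearman's rho was 0.358 for Gpr17 (permutation p = 0.112) and 0.392 for Pdgfra (permutation p = 0.0645). The permutations took no account of the 5 fitted variables. Pearson's r was 0.129 and 0.0946 without the 2 mice with the most extreme Mog on that scale. Read directly, the log2 ratio of Mog to Mbp counts stayed between -5.61 and -5.09 over the 24 mice (SD 0.120), while that of Mog to Pdgfra counts ran from -2.23 to 0.29 (SD 0.636).

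**Figure D4:**
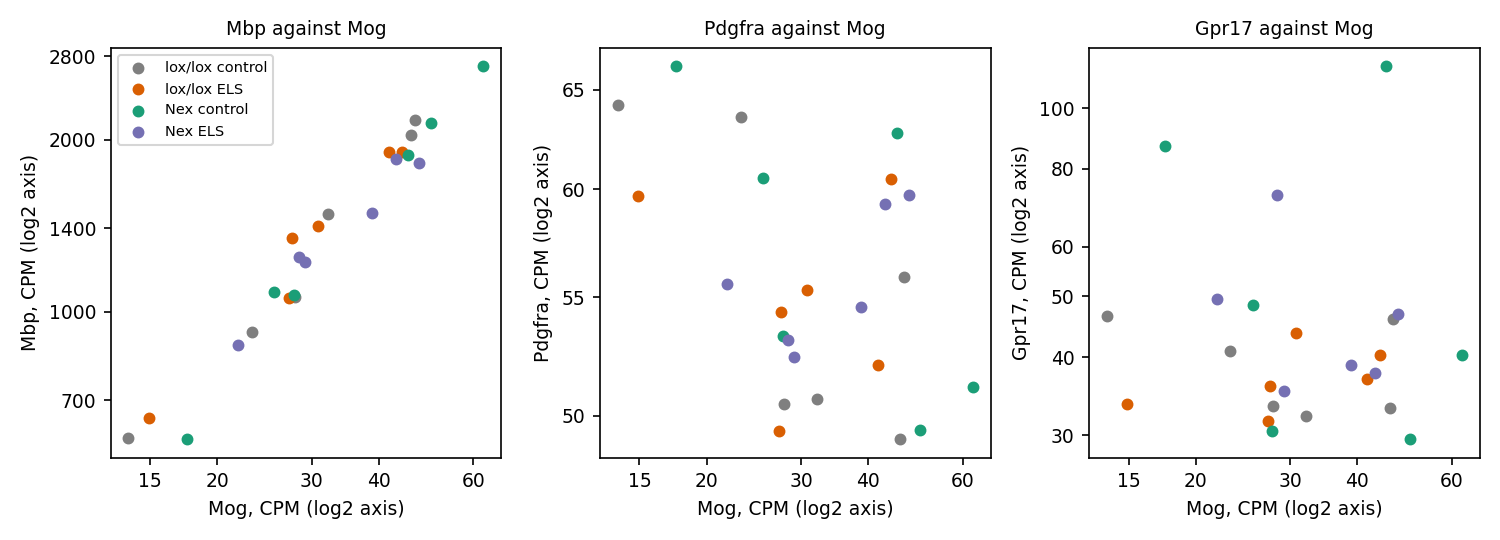
Mbp, Pdgfra and Gpr17 (vertical axes) against Mog (horizontal axes) in 24 mice, in CPM on log2 axes, with a colour per group. Mbp rises with Mog along a line shared by all groups (r = 0.99), Pdgfra scatters within a range of 1.35 times (r = -0.46), and Gpr17 scatters with no clear slope (r = -0.19), in levels from which the surrogate variables were not removed (0.416 for Pdgfra and 0.527 for Gpr17 once they were).

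Markers of other cells moved with the myelin level, and their part in it was not tested. Within groups the deviation of Mog had a correlation of 0.977 with the sum of 43 other myelin and oligodendrocyte genes. The sum of 20 other precursor genes had a median of 1038 CPM, and in it Ptprz1 averaged 267.4 and Tnr 226.8 CPM. With that sum the correlation of Mog was -0.578. Its correlation was 0.761 with 10 choroid plexus markers, -0.593 with 10 astrocyte, -0.559 with 10 microglia, -0.599 with 10 dentate granule cell and -0.508 with 7 CA1 markers, and -0.02 with 10 thalamus markers and 0.08 with total counts. The summed choroid plexus markers ranged from 27.3 to 4759 CPM in Fkbp5lox/lox controls, 32.6 to 1537 CPM in Fkbp5lox/lox ELS, 26.3 to 3539 CPM in Fkbp5Nex controls and 29.5 to 1566 CPM in Fkbp5Nex ELS mice. In the same mice the summed compact myelin genes ranged from 1281 to 5328 CPM, a ratio of 4.16, with group medians in the same order of 2589, 2743, 3035 and 2830 CPM, and the summed precursor genes from 64.1 to 88.6 CPM, a ratio of 1.38.

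The sequence before the start of Mog, Opalin and Pdgfra is shown. The 250 bases come from RefSeq (GRCm38.p6), on the strand of the gene, and capitals mark a match to CTGGNAC, a motif of MYRF (in Mog, as its reverse complement), or to ACAAAG, a motif of SOX factors (in Opalin). The window of Pdgfra holds neither. Neither is held by the windows of Ermn, Mal and Cldn11, whose correlations with Mog were 0.975, 0.983 and 0.980. A link between these letters and the movement between mice was not tested. The printed windows lie at chr17:37023399-37023648 (minus strand), chr19:41077114-41077363 (minus strand) and chr5:75152001-75152250 (plus strand). In GENCODE vM21 (GRCm38) the genes themselves span chr17:37010743-37023398, chr19:41061710-41077113 and chr5:75152292-75198215, so each window is upstream of the annotated gene.
Mog: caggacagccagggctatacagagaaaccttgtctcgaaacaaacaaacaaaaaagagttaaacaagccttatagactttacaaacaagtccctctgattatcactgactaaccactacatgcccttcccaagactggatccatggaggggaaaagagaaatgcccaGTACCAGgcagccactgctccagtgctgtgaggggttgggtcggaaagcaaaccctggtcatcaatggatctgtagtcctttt
Opalin: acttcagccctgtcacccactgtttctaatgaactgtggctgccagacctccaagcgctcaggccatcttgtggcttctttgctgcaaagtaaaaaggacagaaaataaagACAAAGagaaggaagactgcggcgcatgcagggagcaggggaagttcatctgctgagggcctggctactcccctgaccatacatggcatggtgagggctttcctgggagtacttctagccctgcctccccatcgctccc
Pdgfra: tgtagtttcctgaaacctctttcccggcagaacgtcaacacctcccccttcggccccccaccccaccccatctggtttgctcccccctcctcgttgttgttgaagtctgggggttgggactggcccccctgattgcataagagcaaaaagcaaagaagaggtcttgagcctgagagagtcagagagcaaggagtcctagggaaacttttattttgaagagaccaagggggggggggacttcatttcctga

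A promoter entry was matched for 24 of the 34 genes, out of 27025 genes with an entry. Some genes have more than 1 entry, and the 24 genes have 30 entries in all. The start of 23 of the 30 was found in a vM21 transcript, and that of Pdgfra was not. Some windows hold annotated exon bases, for example all 250 in Gpr37 and 174 in Tmem63a, whose window has a match to ACAAAG. On either strand, and counting a gene where any of its entries held the letters, CTGGNAC was present before 8 of the 24 (33.3%, against 17.92% of all genes with an entry), ACAAAG before 8 (33.3%, against 18.56%), and CAGCTG, the E-box letters, before 3 (12.5%, against 14.72%). With only the first entry of each gene it was 6 (25%, against 15.95%), 6 (25%, against 16.46%) and 3 (12.5%, against 12.77%). A match is a run of letters and not a bound site.

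The first comparison asked whether loss of Fkbp5 in forebrain neurons went with a different level of lineage genes. The 34 genes moved together between mice, with 79.0% of their variance on 1 component, so they are not independent of each other. A count of them above or below 0, or at an unadjusted p under 0.05, is a description here and below. The median log2 fold change of the 34 genes (Fkbp5Nex minus Fkbp5lox/lox, both rearing conditions) was 0.11, with 31 of 34 higher, against 49.2% of all genes higher and a median of -0.0013 over them. None of the 34 passed the FDR of 0.02, which 0.117% of all genes did, and the smallest adjusted p was 0.177 by edgeR's quasi-likelihood test. At an unadjusted p under 0.05, 9 of the 34 were higher and 0 lower, against 5.04% of all genes higher and 6.44% lower. These were Mog, Cnp, Cldn11, Gjc3 and Plekhb1 of compact myelin and its upkeep. The others were Apod and Gsn of the carriers, secreted and stress proteins, and Gpr17 and Bcas1 of the committed stage. By role, 15 of 15 compact myelin genes, 5 of 5 transcription factors and 3 of 3 committed-stage genes had a fold change above 0. So did 4 of 5 carriers, secreted and stress proteins, 3 of 4 lipid and metabolic enzymes and 1 of 2 precursor genes.

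Apod, which encodes the lipid carrier apolipoprotein D, had the smallest p of the list. It had 69.4, 99.1 and 160.9 CPM in Fkbp5lox/lox controls, 80.2, 120.6 and 150.7 CPM in Fkbp5lox/lox ELS, 102.8, 147.0 and 169.2 CPM in Fkbp5Nex controls, and 83.8, 128.7 and 165.8 CPM in Fkbp5Nex ELS mice, with all groups overlapping. Its log2 fold change was 0.29 (SE 0.09, 95% interval 0.11 to 0.47, adjusted p = 0.177). Gsn, the actin-severing protein gelsolin, which vessels and meninges also express, had 26.9, 34.7 and 54.7 CPM in Fkbp5lox/lox controls, 21.2, 32.1 and 42.4 CPM in Fkbp5lox/lox ELS, 33.5, 48.4 and 56.2 CPM in Fkbp5Nex controls, and 32.5, 33.5 and 40.9 CPM in Fkbp5Nex ELS mice. The Fkbp5Nex controls were mostly above the other groups in Gsn but overlapped each of them. Its log2 fold change was 0.19 (SE 0.07, 95% interval 0.05 to 0.32, adjusted p = 0.266). For Mbp the 95% interval ran from -0.05 to 0.26.

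Without Fkbp5Nex control mouse 12 the median log2 fold change for genotype fell to 0.00074, with 17 of 34 genes higher, 0 at an unadjusted p under 0.05 and a smallest adjusted p of 0.845, while the genes called over the whole table went from 19 to 2. Apod then had a log2 fold change of 0.11 and Gsn of 0.06. With the same mouse left out and no surrogate variables in the model, all 34 genes were higher with a median of 0.20, so the value without that mouse depended on the surrogate variables. With each of the 24 mice left out in turn, the number at an unadjusted p under 0.05 ran from 0 (without mouse 12) to 15 (without Fkbp5Nex control mouse 54).

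Among the other lists, 36 of 43 other myelin genes, 12 of 19 tested precursor genes, 13 of 26 ligands and receptors of the lineage and 9 of 10 astrocyte markers had a fold change above 0 for genotype, with none past the FDR. All 6 tested choroid plexus markers had one below 0, and Ttr, the thyroxine carrier of that tissue, passed the FDR (log2 fold change -3.07, adjusted p = 0.00259). All 10 dentate granule cell markers were also below 0, and Prox1, Dsp and Npnt passed it. The summed dentate markers ranged from 366.4 to 580.3 CPM in Fkbp5lox/lox controls, 320.6 to 1107 CPM in Fkbp5lox/lox ELS, 198.8 to 835.3 CPM in Fkbp5Nex controls and 219.1 to 611.6 CPM in Fkbp5Nex ELS mice. The part of these markers in the values of the lineage genes was not tested.

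Genotypes were also compared within each rearing condition. In controls 30 of 34 genes had a fold change above 0 in Fkbp5Nex mice, against 49.4% of all genes, with a median of 0.06. None passed the FDR (0.0494% of all genes), and Gpr17, Apod and Gsn were higher at an unadjusted p under 0.05, against 3.78% of all genes. Gpr17 had a log2 fold change of 0.67 (SE 0.24, 95% interval 0.17 to 1.17, adjusted p = 0.416), and without Fkbp5Nex control mouse 64 it was 0.22. Apod had 0.31 (SE 0.12, adjusted p = 0.467). Without Fkbp5Nex control mouse 12, 9 of 34 were above 0 with a median of -0.08, Gpr17 stood at 0.40 and Apod at 0.06. With each mouse left out in turn, the number at an unadjusted p under 0.05 ran from 0 to 9. All 6 choroid plexus markers (median -1.30) and all 10 dentate markers (median -0.64) were below 0 here.

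In ELS mice 32 of 34 genes had a fold change above 0 in Fkbp5Nex, against 48.9% of all genes, with a median of 0.17. None passed the FDR (0.0123% of all genes). Mog, Plekhb1 and Apod were higher at an unadjusted p under 0.05, against 2.93% of all genes. Mog had a log2 fold change of 0.26 (SE 0.11, 95% interval 0.04 to 0.49, adjusted p = 0.740), and Plekhb1, a membrane-associated protein, of 0.16 (SE 0.07, 95% interval 0.01 to 0.31, adjusted p = 0.740). In CPM, Plekhb1 ran from 154.2 to 290.6 in Fkbp5lox/lox ELS mice and from 190.7 to 270.5 in Fkbp5Nex ELS mice, the second range lying inside the first. Mouse 12 is in neither of these groups, but the model is fitted on all mice. Without mouse 12 the median was 0.09 with 27 of 34 above 0 and 0 at an unadjusted p under 0.05. Which step of the fit led to this was not tested. With each mouse left out in turn the number at an unadjusted p under 0.05 ran from 0 to 12, and the number above 0 from 27 to 33. With only the 12 ELS mice in the model, 30 of 34 were above 0 and 6 had an unadjusted p under 0.05, against 6.58% of all genes. All 6 choroid plexus markers (median -0.70) and all 10 dentate markers (median -0.26) were below 0 in this comparison too.

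The next question was whether ELS went with a different level of lineage genes. Over both genotypes the median log2 fold change (ELS minus control) was -0.06, with 6 of 34 genes above 0 against 52.2% of all genes. The FDR of 0.02 was passed by 0 of the 34 and by 0% of all genes, with a smallest adjusted p of 0.9995 by edgeR. Gsn, Cryab and Car2 were lower at an unadjusted p under 0.05, against 1.58% of all genes lower. Gsn had a log2 fold change of -0.18 (SE 0.07, 95% interval -0.33 to -0.03). Cryab, a small heat shock protein abundant in mature oligodendrocytes, had -0.12 (SE 0.05, 95% interval -0.23 to -0.02), from group medians of 59.9 CPM in Fkbp5lox/lox controls, 56.3 CPM in Fkbp5lox/lox ELS, 67.8 CPM in Fkbp5Nex controls and 59.2 CPM in Fkbp5Nex ELS mice. Without Fkbp5Nex control mouse 12, 4 of 34 were above 0 and 7 had an unadjusted p under 0.05, against 3.69% of all genes. Leaving out Fkbp5Nex control mouse 64 gave 18 of 34 above 0 and a median of 0.0067, and without Fkbp5lox/lox ELS mouse 4 it was 17 and 0.00014. Over all 24 such fits the number at an unadjusted p under 0.05 ran from 0 to 7. Of other cells, 6 of 6 choroid plexus markers (median 0.47), 9 of 10 thalamus markers (median 0.17) and 0 of 10 astrocyte markers (median -0.03) were above 0, none past the FDR, and their part in these values was not tested.

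In Fkbp5lox/lox mice 29 of 34 genes had a fold change below 0 after ELS, against 48.6% of all genes, with a median of -0.09. All 15 compact myelin genes and all 4 lipid and metabolic enzymes were among them, and both precursor genes were above 0. No gene passed the FDR (0% of all genes), and Car2 was lower at an unadjusted p under 0.05, against 2.01% of all genes. Its log2 fold change was -0.12 (SE 0.06, 95% interval -0.25 to -0.0028, adjusted p = 0.954 by edgeR) in the model with surrogate variables. In CPM its lowest, median and highest were 147.0, 185.8 and 262.5 in controls and 144.7, 189.8 and 217.8 after ELS, so its median was not lower. The median of Mbp also rose (1270.3 to 1381 CPM), and that of Mog fell (30.0 to 29.2 CPM). Cryab had a log2 fold change of -0.14 (SE 0.07, 95% interval -0.28 to 0.01). Without surrogate variables 13 of 34 genes were above 0 with a median of -0.02. Without Fkbp5Nex control mouse 12, 1 of 34 was above 0 and 8 had an unadjusted p under 0.05, against 3.9% of all genes, with a median of -0.17. The direction turned without Fkbp5lox/lox ELS mouse 4 (19 of 34 above 0, median 0.02) and without Fkbp5lox/lox ELS mouse 8 (21 of 34, median 0.02). Over all 24 such fits the number at an unadjusted p under 0.05 ran from 0 to 8. In the same comparison 10 of 10 thalamus markers were above 0 (median 0.32, 2 at an unadjusted p under 0.05), with sums of 167.0 to 261.3 CPM in controls and 208.6 to 445.5 CPM after ELS. Choroid plexus markers were above 0 in 5 of 6 (median 0.13) and dentate markers in 3 of 10 (median -0.15), and the part of these markers was not tested.

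In Fkbp5Nex mice 13 of 34 genes had a fold change above 0 after ELS, against 52.3% of all genes, and the median was -0.03. Of the compact myelin genes 9 of 15 were above 0, and all 3 committed-stage genes were below 0 with a median of -0.29. None passed the FDR (0% of all genes) or an unadjusted p of 0.05, which 2.8% of all genes did. Gsn had a log2 fold change of -0.19 (SE 0.10, 95% interval -0.39 to 0.01). Enpp6 had -0.62 (SE 0.35, 95% interval -1.36 to 0.11), and without Fkbp5Nex control mouse 64 it was 0.15. With mouse 12 left out, 10 of 34 were above 0. Leaving out Fkbp5Nex control mouse 64 gave 25 of 34, with a median of 0.10. Over all 24 such fits the number at an unadjusted p under 0.05 ran from 0 to 3. Without surrogate variables 1 of 34 was above 0 with a median of -0.16, and with only the 12 Fkbp5Nex mice in the model 1 of 34 was above 0 with a median of -0.19 and 16 had an unadjusted p under 0.05, against 5.19% of all genes, though the smallest adjusted p was 0.865. Choroid plexus markers were above 0 in 6 of 6 (median 0.81, 4 at an unadjusted p under 0.05), dentate markers in 10 of 10 (median 0.20), CA1 markers in 6 of 7 (median 0.33) and microglia markers in 0 of 10 (median -0.07), none past the FDR, and their part in the values of the lineage genes was not tested.

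Whether the ELS effect differed between genotypes was tested as the interaction, the ELS effect in Fkbp5lox/lox minus that in Fkbp5Nex mice. Its median over the 34 genes was -0.07, with 11 above 0 against 50% of all genes. None passed the FDR (0% of all genes) or an unadjusted p of 0.05, which 4.02% of all genes did. Opalin had the smallest p, with -0.36 (SE 0.21, 95% interval -0.79 to 0.07), made of -0.10 in Fkbp5lox/lox and 0.26 in Fkbp5Nex mice. Cspg4 came next with 0.21 (SE 0.13, 95% interval -0.07 to 0.49). The direction over the list turned with the model, since without surrogate variables 31 of 34 were above 0 with a median of 0.14, and without them and without mouse 12 it was 33 of 34 with 0.26. With mouse 12 left out and the surrogate variables kept, 4 of 34 were above 0 with a median of -0.14. It was also positive without Fkbp5lox/lox control mouse 30 (0.02), Fkbp5lox/lox ELS mouse 4 (0.02) or Fkbp5lox/lox ELS mouse 8 (0.07), and over all 24 such fits the number at an unadjusted p under 0.05 ran from 0 to 2. In the interaction 0 of 6 choroid plexus markers (median -0.68), 0 of 7 CA1 markers (median -0.41) and 9 of 10 thalamus markers (median 0.30) were above 0, and their part was not tested.

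**Figure D5:**
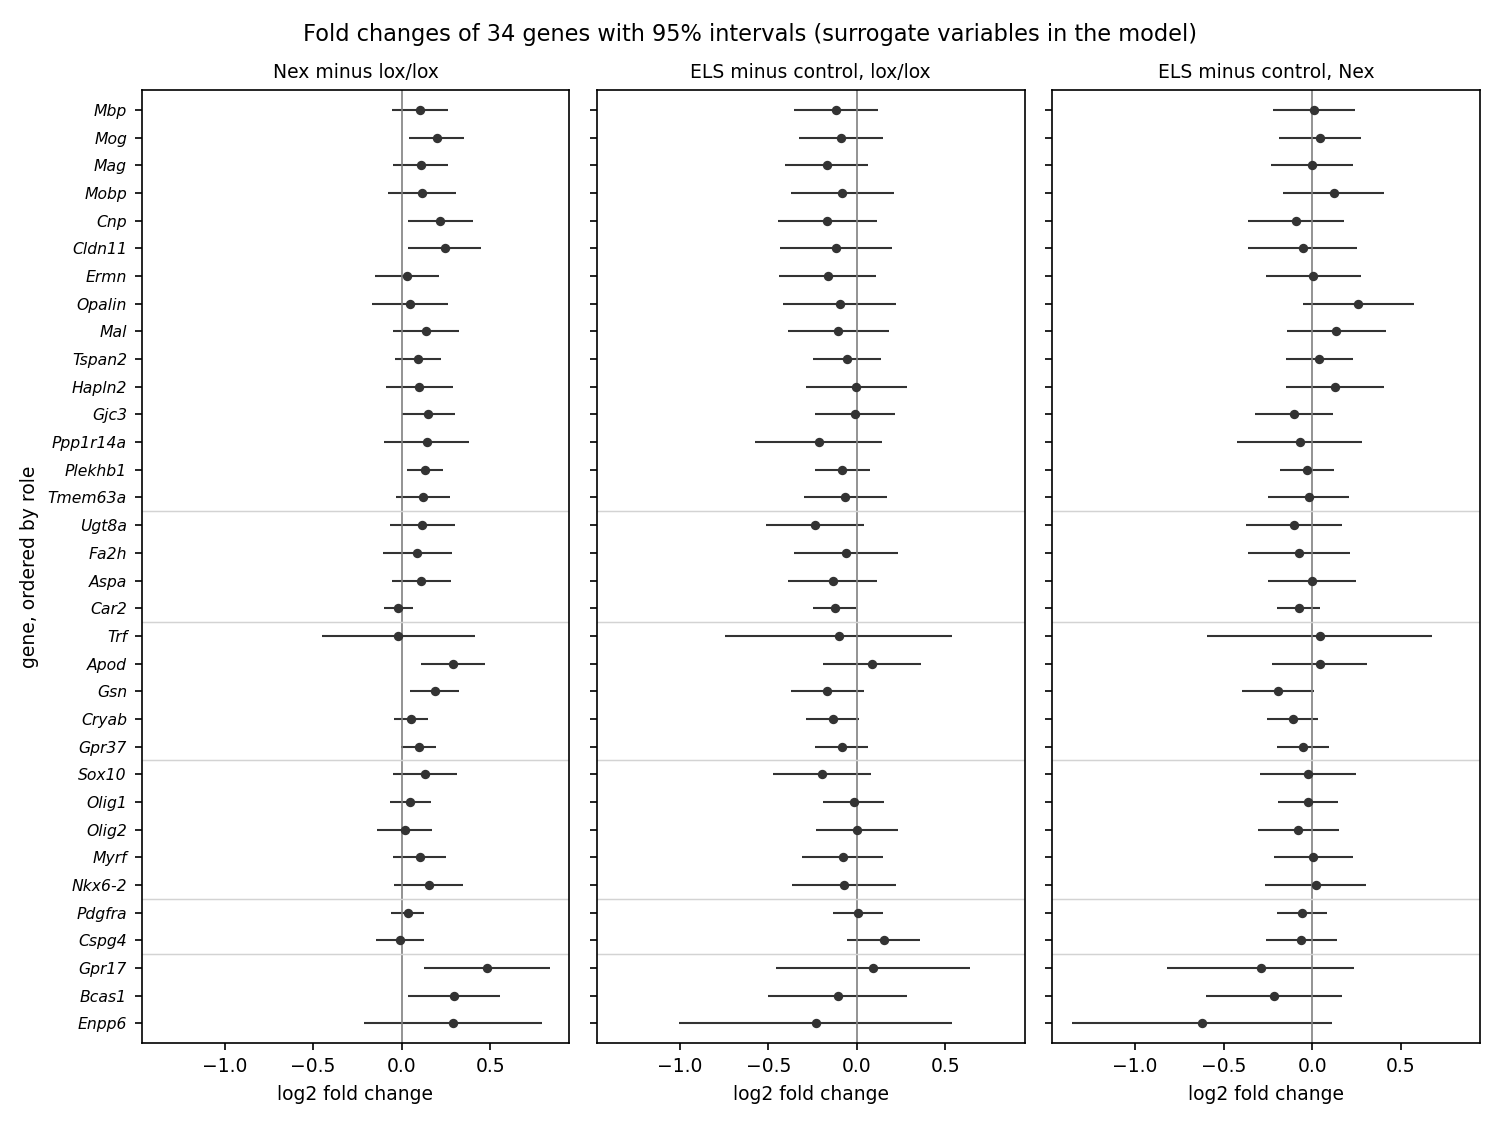
Log2 fold change with 95% interval (horizontal axes) of the 34 genes, ordered by role, for Fkbp5Nex minus Fkbp5lox/lox over both rearing conditions (left), ELS minus control in Fkbp5lox/lox (middle) and ELS minus control in Fkbp5Nex mice (right), from the model with surrogate variables and all 24 mice. On the left 31 of 34 points lie right of 0 (17 of 34 without Fkbp5Nex control mouse 12), in the middle 29 lie left of 0 (21 without surrogate variables, 13 without Fkbp5lox/lox ELS mouse 8), and the intervals of Gpr17, Enpp6 and Trf are wide.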

How the data were processed

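Bulk RNA was sequenced from hippocampal punches of 24 mice. The deposited file holds unnormalized gene counts made by the authors. Per the labels and methods, read pairs were aligned with HISAT2 2.0.5 and counted with featureCounts 1.5.0-p3 by the sequencing provider. Genome build, annotation, strandedness and the treatment of multi-mapping reads are not given in the sources used here, and an outlying sample that the methods removed is not named. Samples were grouped by the genotype and treatment in the labels, and mice of a group differed by more than sampling noise (chi-square per gene 6.03 to 62.3).

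From the counts, 16209 genes with 10 or more counts in all 6 mice of any group were kept and scaled by TMM. The model held 4 group means and 5 surrogate variables (svaseq, sva 3.50.0), fitted on all 24 mice with edgeR 4.0.16 in R 4.3.3, with quasi-likelihood tests, Benjamini-Hochberg adjustment over all genes and an FDR of 0.02. Standard errors and intervals are Wald values of that fit. DESeq2 1.42.0, the tool of the study's methods, was an alternative, and others were no surrogate variables, other size factors and filters, an FDR of 0.05, only the 12 mice compared and each mouse left out. The step was run on simulated counts drawn independently for each gene, which cannot test how the surrogate variables handle patterns shared by genes. Relations, positions and figures used Python 3.11.15 (scipy 1.17.1, pandas 2.3.3, numpy 2.4.6, matplotlib 3.10.9), with lengths and positions from GENCODE vM21, which matched 46488 of 46983 identifiers.

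Depth limits low genes most, since a gene near 10 counts carries large counting error. The 34 genes, the roles and the marker lists were chosen with earlier results of these data known. Genes named are Fkbp5, any of the 34 past the FDR, the 2 with the smallest p in each comparison, 10 representatives (Mbp, Mog, Opalin, Sox10, Olig2, Myrf, Gpr17, Enpp6, Pdgfra and Cspg4), the ends of the per-length order, and list genes past the FDR. Others named were chosen after their values were seen.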

Additional observations from a re-analysis of the deposited data

Results flagged for a closer look

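In groups of 6 mice, 84 sets of values were examined for a single mouse far from the others (gap over range above Dixon's 95% critical value, which chance passes in about 1 of 20), and 4 were found. Cspg4 was at 24.4 CPM in Fkbp5lox/lox control mouse 44, against 13.6 to 17.7 CPM in the other mice of its group, and that mouse also had the lowest Mog of the 24. In Fkbp5Nex control mouse 32 Cspg4 was at 21.5 CPM, against 16.8 to 17.99 CPM in the others. Gsn was at 40.9 CPM in Fkbp5Nex ELS mouse 62, against 32.5 to 34.0 CPM in the others. The summed genes of committed precursors and newly formed oligodendrocytes reached 286.7 CPM in Fkbp5Nex control mouse 64, against 101.4 to 170.6 CPM in the others. No cause was tested for any of these.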

How the results depend on the processing

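None of the 34 genes passed the FDR in any of the 7 comparisons under any alternative. There were 189 alternative values other than those with a mouse left out. Of these, 187 stayed on their side of the threshold or moved by less than the spread between mice. For a median of the list that spread was 0.554, wider than any such median printed here. With none of the 34 genes past the FDR in any setting, most values could hardly have been flagged. The 187 therefore says little on how stable the directions are. None of the 84 single-gene fold changes among the 189 changed direction. They belong to the 2 genes with the smallest p in each comparison, a choice that favours a stable sign. Those at an FDR of 0.05 come from the reported fit itself and could not change. Of 39 medians of the list 1 turned, the interaction without surrogate variables (0.14). The 2 that reversed were relations with Mog when deviations were also taken from the surrogate variables. Pearson's r was 0.527 for Gpr17 and 0.416 for Pdgfra (permutation adjusted p = 0.0371 for both). Spearman's rho was 0.358 (permutation p = 0.112) and 0.392 (permutation p = 0.0645). Pearson's r fell to 0.129 and 0.0946 without the 2 mice with the most extreme Mog on that scale, and the cause was not tested. With a mouse left out in turn, the number past the FDR was 0 to 0 in each comparison, and the median log2 fold change ran from 0.00074 to 0.162 for genotype, -0.119 to 0.0067 for ELS, -0.186 to 0.0722 for the interaction, -0.174 to 0.0229 for ELS in Fkbp5lox/lox, -0.0794 to 0.103 for ELS in Fkbp5Nex, -0.0785 to 0.142 for genotype in controls and 0.0857 to 0.246 for genotype in ELS mice. Enpp6 for ELS in Fkbp5Nex reversed to 0.145 without Fkbp5Nex control mouse 64, from a lowest value of -0.816, and Opalin for the interaction reversed to 0.0634 without mouse 12 and without surrogate variables. Over all genes, the calls for genotype were 19 in the reported model, 3 without surrogate variables, 27 with filterByExpr, 26 without a filter, 50 at an FDR of 0.05, 70 with DESeq2's Wald test and 2 to 32 with a mouse left out. Lengths of the longest transcript, and the model without surrogate variables and without mouse 12, were chosen after seeing the data. No paired analysis was possible because each mouse number belongs to 1 mouse and no number is shared between groups. Trf had the fewest reads of the 34 genes (6 to 34), and its exonic bases shared with Gm20425 also leave its level uncertain.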
